A study of Mus musculus with 6 samples.

Results

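The presynaptic and synaptic vesicle genes are 42 genes, named by symbol, whose proteins store transmitter in vesicles, bring the vesicles to the plasma membrane, release them and take the membrane back. All 42 were found among the 17348 genes of the count table for cortex of E18.5 embryos, shortly before birth, and all 42 were among the 13570 genes with enough counts to test. The study compared 3 libraries of cortex in which Ybx1 was deleted (conditional knockout, cKO) with 3 of control cortex. Ybx1 is an RNA-binding protein that reads the m5C mark on mRNA. The cKO embryos carried Nestin-Cre and Ybx1 fl/fl, in which exons 3 to 8 are flanked by loxP sites, on a C57BL/6J background. The controls carry the genotype label WT and are called wild type littermates in the study's methods, while elsewhere the study defines its controls as Ybx1 fl/fl with no Cre, so the floxed allele may be present in both groups. Nestin-Cre acts in neural progenitors and what they give rise to, so blood vessels, blood and microglia in the dissected cortex should keep Ybx1. Ybx1 was not measured by cell type here. The labels give no age other than E18.5 and do not say how many embryos went into a library, so p-values measure the spread between these libraries.

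A synaptic vesicle is docked at the active zone by scaffold proteins, and is made ready by priming factors that help a vesicle SNARE protein pair with SNARE proteins of the plasma membrane. Calcium entering the terminal binds synaptotagmins on the vesicle, which trigger fusion, and endocytosis then recovers the membrane. In the cortex at this age neurons already transcribe these genes while their axons are still growing and few synapses have formed. The genes are grouped below by role, as 10 vesicle-associated proteins, 7 calcium sensors, 8 SNARE proteins and their regulators, 10 proteins of the active zone and priming, 3 of the Rab3 cycle and 4 of endocytosis.

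The libraries held 15091951 to 16885451 estimated counts. Levels are given as CPM, the counts divided by a library total that was scaled by edgeR's TMM factors, and comparisons between genes as TPM, which also divides by transcript length. Ybx1 stood at 1015, 1297 and 956 CPM in control replicates 1 to 3 and at 23.96, 24.8 and 24.9 CPM in cKO replicates 1 to 3, so each library matched its label. The Y-linked gene Eif2s3y had 1422 to 1756 estimated counts in the control libraries and 0 to 1 in the cKO libraries, so genotype and embryo sex cannot be told apart for any gene, the X-linked Syn1 and Syp included. Control replicate 2 stood apart from the other 5 libraries. In it, the deviation of a gene from its mean over the libraries fell with effective transcript length (Pearson r = -0.632 across 13135 genes, against 0.144 to 0.393 in the others). The deviations also followed GC content, with r = 0.508 in control replicate 2, -0.448 in control replicate 3 and -0.268 to 0.0578 in the other 4 libraries. The series' description speaks of 3 sequencing batches, and the labels do not tie the replicate numbers to them. All 10 neuronal markers examined, among them Tubb3, Map2 and Dcx, were detected, with a summed level of 6849 to 8134 CPM in control and 6601 to 7500 CPM in cKO libraries. The choroid plexus markers Ttr, Folr1 and Kcnj13 were too low to test in every library.

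No presynaptic gene passed the test across all genes, and the fold changes of most were small. None of the 42 had an adjusted p under 0.05 (edgeR's quasi-likelihood test, Benjamini-Hochberg adjustment over all genes tested), where 0.0737% of all tested genes did. At an unadjusted p under 0.05 there were 6, or 14.3%, beside 6.62% of all tested genes. Syn2, Sv2b and Syt1 were on the higher side in cKO (3.14% of all genes were) and Syt5, Cplx1 and Napb on the lower side (3.49% of all genes). Control and cKO libraries stood fully apart in 9 of the 42 genes, or 21.4%, beside 14.3% of all tested genes. Of these, 4 were higher in every cKO library, namely Syn2, Sv2b, Syt1 and Rab3c (7.35% of all genes), and 5 were lower, namely Vamp1, Vamp2, Cplx1, Napb and Rims3 (6.93% of all genes). The fold change was above 0 on the log2 scale for 23 genes (50.6% of all tested genes) and below 0 for 19, with a median of 0.048, where the median of all tested genes was 0.00272. Values ran from -0.41 for Cplx1 to 0.71 for Sv2b. Other tests called Syn2, at an adjusted p of 6.07e-05 in DESeq2 and 0.000112 in edgeR's exact test, which made 1 call each among the 42 and called 0.722% and 0.715% of all tested genes. In TPM the 4 higher genes stood apart as well, and all 5 lower genes overlapped. Syp, Syt2, Syt4, Syt7, Syt11, Stx1a, Bsn, Ppfia2, Rph3a and Dnm1 were also higher in every cKO library in TPM. On that scale genes in general lay higher in cKO. At an unadjusted p under 0.05 (limma on log2(TPM + 1)) 10.3% of all tested genes passed, 8.83% on the higher side. The share of all genes whose groups stood apart in TPM was not counted. The genes apart in TPM therefore cannot be read as particular to the presynaptic list. Leaving out control replicate 2 gave 10 genes at an unadjusted p under 0.05 (edgeR), namely Syn2, Sv2b, Syt1, Syp (0.205) and Sncb (0.334) on the higher side and Cplx1, Napb, Syn3 (-0.229), Erc2 (-0.236) and Rims2 (-0.201) on the lower side, with the log2 fold change of those not in the first count in parentheses. In that fit 12.1% of all tested genes passed. In bulk cortex, fewer cells of a type and less RNA per cell cannot be told apart.

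**Figure D1:**
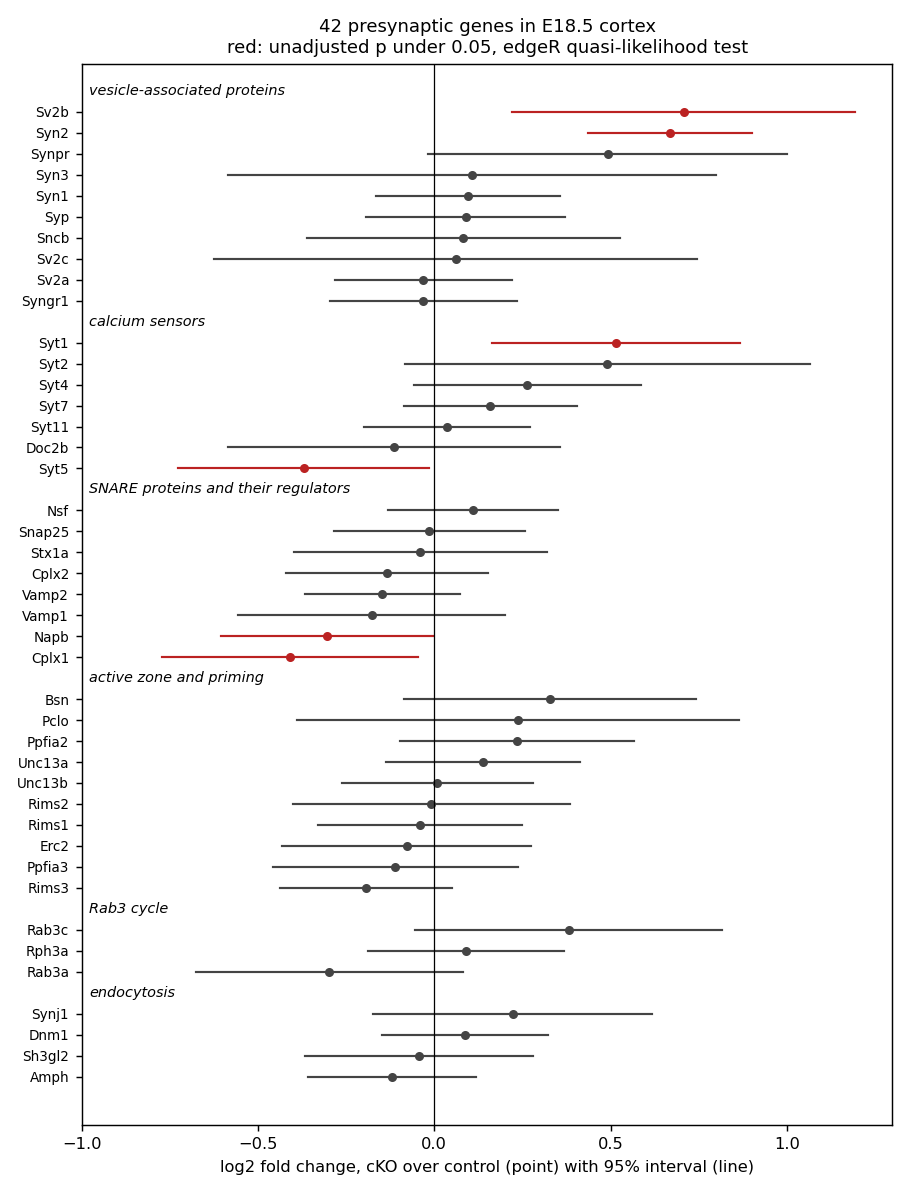
Log2 fold change of each of the 42 presynaptic genes (cKO over control, point) with its 95% interval (line) from edgeR's quasi-likelihood fit of 3 against 3 libraries, grouped by role. The 6 genes in red have an unadjusted p under 0.05, and the intervals of 26 genes lie within 1.5-fold of no difference in either direction.

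The intervals set how large a difference could lie behind each estimate, and they are counted over all 42 genes, whether or not a difference was seen. The 95% interval of the fold change lay within 1.5-fold either way for 26 of the 42 genes (62.2% of all tested genes) and within 2-fold either way for 39. The other 3 were Synpr, Sv2b and Syt2, whose intervals on the log2 scale were -0.017 to 1.002, 0.22 to 1.195 and -0.084 to 1.06. Of these, only that of Sv2b lay wholly on the higher side. The share of all tested genes within 2-fold was not counted. Standard errors ran from 0.0967 to 0.306 (log2), with a median of 0.145.

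The vesicle-associated proteins include the synapsins, which tether vesicles to one another and to actin, and Syn2 was the gene with the smallest p of the 42. Syn2 had 28.03, 29.98 and 29.1 CPM in the control libraries and 43.7, 47.7 and 46.9 CPM in the cKO libraries. Every cKO library lay well above every control library, and within each group the 3 values were close together. The level was 29.02 ± 0.977 CPM in control and 46.1 ± 2.12 CPM in cKO cortex (SD, n = 3 each), a fold change of 1.59 (95% interval 1.35 to 1.87; log2 fold change 0.67, SE 0.103, unadjusted p = 1.14e-04, adjusted p = 0.0969, edgeR's quasi-likelihood test). An exact two-sided permutation test gave p = 0.1, the smallest that 3 against 3 libraries allow, as it did for Sv2b, Syt1, Cplx1, Napb and Rab3c, and 0.2 for Syt5. Without control replicate 2, where 0.891% of all tested genes passed and Syn2 and Napb of the 42 did, the adjusted p of Syn2 was 0.00777, and with each of the other 5 libraries left out it was 0.112 to 0.81, while the log2 fold change stayed between 0.644 and 0.707. The gene lies at chr6:115134902-115282626 of GRCm38. Part of one exon, 90 bases, overlaps an exon of Timp4 on the opposite strand, and Timp4 stood at 0.578 CPM in control and 0.691 CPM in cKO cortex.

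Syn1 and Syn3 did not part the groups. Syn1, the X-linked synapsin, had 112, 95.7 and 88.9 CPM in control and 108, 108 and 100.5 CPM in cKO libraries, with a 95% interval of -0.17 to 0.36 on the log2 scale. Syn3 had 111, 41.98 and 110.2 CPM in control and 91.2, 93.3 and 99.04 CPM in cKO libraries. Its control replicate 2 was far below the other 5 libraries, and the log2 fold change turned from 0.11 to -0.229 (unadjusted p = 0.0140, edgeR) when that library was left out. Exons of Syn3 and of Timp3, an inhibitor of matrix metalloproteases encoded within Syn3 on the opposite strand, share 1733 bases. Timp3 had 32.5, 24.4 and 23.8 CPM in control and 47.8, 39.6 and 37.7 CPM in cKO libraries. Its log2 fold change was 0.63 (unadjusted p = 0.00287, adjusted p = 0.385, edgeR). Without known strandedness the reads of such a pair cannot be told apart. Exons of 16 of the 42 genes overlapped an exon of another gene, and for 6 of them that gene was counted too. Among these, exons of Ppfia2 and Acss3 shared 2436 bases and those of Unc13a and Colgalt1 shared 495, on opposite strands.

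Because the synapsin genes share a family and Syn2 alone of them had a p under 0.05, the promoter sequence just before the Syn2 start is printed here. It was taken from RefSeq (GRCm38.p6, chr6:115134782-115134901, + strand), 5′ to 3′, with the 2 copies of the GC box GGGCGG, to which Sp1 family factors bind, in capitals.
Syn2: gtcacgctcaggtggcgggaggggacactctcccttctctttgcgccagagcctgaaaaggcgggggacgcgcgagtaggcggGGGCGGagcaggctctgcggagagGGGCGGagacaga
A GC box on either strand stood in 28 of the 34 presynaptic genes with a promoter entry (250 bases before to 50 after the start), and in 38.2% of all 27025 genes with an entry. Many of those genes were not tested here, so this share, and those of all promoters below, do not compare like with like. Many neuronal genes are silenced outside neurons by REST at the RE1 element. Its left part, TTCAGCACC, was searched on both strands and found in 3 of the 34 presynaptic promoters, Syn1, Ppfia3 and Unc13a, against 0.433% of all promoters. These 3 are shown because RE1 is the best known control element of neuronal genes, with the match in capitals. A match is a run of letters and not a known site. Each is read on the strand of its gene, and in Unc13a the match is to the reverse complement and lies after the transcription start.
Syn1 (chrX:20921112-20921168, - strand): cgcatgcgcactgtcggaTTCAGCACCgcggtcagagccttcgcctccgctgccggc
Ppfia3 (chr7:45367027-45367095, - strand): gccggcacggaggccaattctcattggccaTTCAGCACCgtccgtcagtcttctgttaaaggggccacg
Unc13a (chr8:71671716-71671745, - strand): ccgcgcccccGGTGCTGAAgcgacatggcc
The log2 fold changes of these 3 genes were 0.095 for Syn1, -0.11 for Ppfia3 and 0.14 for Unc13a, with unadjusted p-values of 0.432, 0.491 and 0.283 (edgeR). A palindromic cAMP response element, TGACGTCA, stood in the promoters of Syn1 and Sh3gl2, 2 of the 34, against 2.03% of all promoters.

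Among the transmembrane vesicle proteins, Sv2b, a transporter-like glycoprotein that binds synaptotagmin, was higher in cKO libraries. It had 16.93, 13.6 and 17.3 CPM in control and 31.6, 17.8 and 28.7 CPM in cKO libraries. The lowest cKO library, replicate 2, was only just above the highest control library, and the other 2 cKO libraries were far above it. The means were 15.9 ± 2.04 CPM in control and 26 ± 7.29 CPM in cKO cortex (SD, n = 3 each), a fold change of 1.63 (95% interval 1.17 to 2.29; unadjusted p = 0.00936, adjusted p = 0.512, edgeR). Its relatives Sv2a and Sv2c had log2 fold changes of -0.031 and 0.061. Syp, synaptophysin, the major integral protein of the vesicle, had the highest TPM of the class, with 175, 185 and 170.3 TPM in control and 222, 210 and 197 TPM in cKO libraries. In CPM the groups overlapped for Syp (174, 210.2 and 163 against 205, 195 and 182), and its log2 fold change was 0.089 with a 95% interval of -0.19 to 0.37. It was 0.205 (unadjusted p = 0.0320) without control replicate 2 and 0.158 (unadjusted p = 0.0263) after length and GC content had been corrected (edgeR). Syngr1, synaptogyrin, had the lowest fold change of the class, at 107, 101 and 86.4 CPM in control and 103, 94.3 and 89.8 CPM in cKO libraries (log2 fold change -0.032, unadjusted p = 0.793, edgeR). Of the 10 genes, 8 were above 0 on the log2 scale, and on log2(TPM + 1) Sv2a and Syngr1 were above 0 as well. On that scale the median of all tested genes was 0.141, against 0.00272 in CPM, and the class median in CPM was 0.0923. Synpr, synaptoporin, lay between, at 4.77 to 5.76 CPM in control and 5.48 to 9.41 CPM in cKO libraries (log2 fold change 0.49, unadjusted p = 0.0566, edgeR), and Sncb, beta-synuclein, had a log2 fold change of 0.083, or 0.334 without control replicate 2. Summed over the 10 genes, the level was 658.1 to 734.6 CPM in control and 713.2 to 774.6 CPM in cKO libraries, which overlapped, and 452 to 510.2 TPM in control and 547.3 to 601.9 TPM in cKO libraries, which did not.

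**Figure D2:**
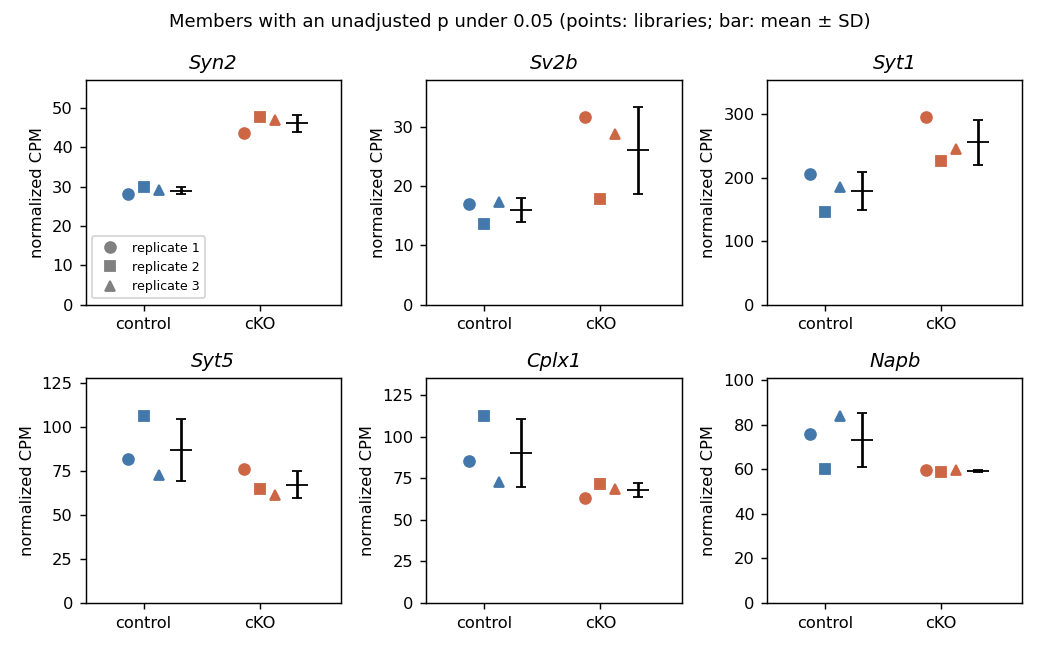
Normalized CPM of the 6 presynaptic genes with an unadjusted p under 0.05, with 1 point for each library (the marker shape gives the replicate number) and the mean ± SD of 3 libraries beside it; each axis starts at 0. All 3 cKO libraries lie above all 3 control libraries for Syn2, Sv2b and Syt1 and below them for Cplx1 and Napb, while for Syt5 the groups overlap.

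The calcium sensors lay on both sides of 0, with Syt1 the highest and Syt5 the lowest. Syt1, the fast sensor of evoked release in forebrain neurons, had 206.5, 147 and 185 CPM in control and 296, 227 and 246 CPM in cKO libraries. All cKO libraries were above all control libraries, with control replicate 2 the lowest of the 6. The means were 179 ± 30.3 CPM in control and 256 ± 35.4 CPM in cKO cortex (SD, n = 3 each), a fold change of 1.43 (95% interval 1.12 to 1.82; unadjusted p = 0.00903, adjusted p = 0.510, edgeR). Without control replicate 2 its log2 fold change was 0.389 in place of 0.515, with an unadjusted p of 0.00567 and an adjusted p of 0.185. Syt5, another vesicle synaptotagmin, was on the other side, with 81.6, 106.5 and 72.8 CPM in control and 76.02, 64.6 and 61.2 CPM in cKO libraries. Its highest cKO library lay above its lowest control library, so the groups overlapped, and control replicate 2 was the highest. The log2 fold change of Syt5 was -0.37 (SE 0.158, unadjusted p = 0.0434, adjusted p = 0.731, edgeR), and it was -0.198 without control replicate 2. Its unadjusted p was above 0.05 without control replicate 1 or 2 or cKO replicate 2 or 3 (0.0609 to 0.142, edgeR).

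Syt4, a synaptotagmin of dense core vesicles that binds calcium weakly, had the highest TPM of the sensors, with 265, 218 and 288 TPM in control and 411, 312.5 and 294 TPM in cKO libraries. In CPM it had 437, 408.5 and 457 in control and 629, 483 and 452 in cKO libraries. The cKO libraries spread widely, from close to the control libraries to far above them, and the log2 fold change was 0.26 (95% interval -0.059 to 0.59, unadjusted p = 0.0974, edgeR). Syt7, the slow sensor of asynchronous release, had a log2 fold change of 0.16, and Syt11, which does not bind calcium, had 0.035. Syt2, the fast sensor of the hindbrain, was the lowest of the 42 genes by TPM, with a control mean of 0.747 ± 0.246 and a cKO mean of 1.16 ± 0.137 (SD, n = 3 each). Doc2b, a sensor of spontaneous release, had a log2 fold change of -0.11. The class takes in Syt4 and Syt11 as synaptotagmins, although they bind calcium weakly or not at all. Of its 7 genes, 5 were above 0, with a class median of 0.159. Their summed level was 1197 to 1285 CPM in control and 1294 to 1591 CPM in cKO libraries, and 644.7 to 749.1 against 792.3 to 988.1 in TPM, without overlap on either scale. The CPM ranges nearly touched, and in TPM genes in general lay higher in cKO. Syt1 (means of 179 and 256 CPM in control and cKO) and Syt4 (434 and 521 CPM) moved the sum most, so it is no separate result.

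The SNARE proteins and their regulators were the class with most genes on the lower side in cKO. Of the 8 genes, 7 were below 0 on the log2 scale, with a class median of -0.14, but on log2(TPM + 1) Snap25, Stx1a, Vamp2 and Cplx2 were above 0, on a scale where the median of all genes was 0.141. The 4 genes whose groups did not overlap, Cplx1, Napb, Vamp1 and Vamp2, were all lower in every cKO library in CPM. That is 4 of 8 beside 6.93% of all tested genes, and all 4 overlapped in TPM. The class was chosen with earlier results of these data known, so this share is no test of the class. Of the 10 neuronal markers, 3 stood apart in CPM, all lower in cKO, and their median log2 fold change was -0.166. Cplx1, complexin 1, which clamps and then promotes SNARE-driven fusion, had 85.3, 113 and 72.5 CPM in control and 63.3, 71.8 and 68.7 CPM in cKO libraries. Its lowest control library was just above its highest cKO library, and control replicate 2 stood far above the rest. The means were 90.1 ± 20.5 CPM in control and 67.9 ± 4.32 CPM in cKO cortex (SD, n = 3 each), a fold change of 0.753 (95% interval 0.586 to 0.968; unadjusted p = 0.0311, adjusted p = 0.672, edgeR). Without control replicate 2 the log2 fold change of Cplx1 was -0.217 in place of -0.41, with an unadjusted p of 0.0481, and the unadjusted p was 0.0501 to 0.104 without control replicate 1 or any of the cKO libraries (edgeR).

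Napb, beta-SNAP, which recruits the ATPase Nsf to take used SNARE complexes apart, had 75.6, 60.2 and 84.1 CPM in control and 59.5, 58.8 and 59.8 CPM in cKO libraries. The 3 cKO libraries were almost equal and the control libraries scattered, with control replicate 2 only just above the cKO libraries. The means were 73.3 ± 12.1 CPM in control and 59.4 ± 0.506 CPM in cKO cortex (SD, n = 3 each), a fold change of 0.810 (95% interval 0.658 to 0.998; unadjusted p = 0.0481, adjusted p = 0.746, edgeR). Without control replicate 2, the library in which it was lowest, the log2 fold change was -0.427 with an adjusted p of 0.0464, and without control replicate 3 it was -0.194. Without any library other than control replicate 2, the unadjusted p was 0.109 to 0.162 (edgeR). Nsf itself was the 1 gene of the class above 0, with 60.9, 54.1 and 60.3 CPM in control and 65.99, 58.5 and 64.6 CPM in cKO libraries (log2 fold change 0.11, unadjusted p = 0.331, edgeR).

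Vamp2, the vesicle SNARE of the forebrain, had the highest TPM of the class, 266, 245 and 283 TPM in control and 263, 261 and 269 TPM in cKO libraries. In CPM it had 225, 237 and 231 in control and 206.5, 207 and 212 in cKO libraries, a small difference with no overlap (log2 fold change -0.15, SE 0.0967, unadjusted p = 0.162, edgeR). Its low relative Vamp1 had 5.58 to 6.73 CPM in control and 5.17 to 5.54 CPM in cKO libraries, with a log2 fold change of -0.18. The plasma membrane SNARE proteins Snap25 and Stx1a had log2 fold changes of -0.015 and -0.039, with 95% intervals of -0.29 to 0.26 and -0.40 to 0.32. Cplx2, complexin 2, had -0.13. Summed over the 8 genes, the level was 913.5 to 935.3 CPM in control and 801.6 to 865.4 CPM in cKO libraries, with no overlap. Mean CPM in control and cKO was 231 and 209 for Vamp2, 250.7 and 228.5 for Cplx2 and 90.1 and 67.9 for Cplx1. These genes moved the CPM sum most, so it is no separate result. Summed TPM was 743.2 to 878.8 in control and 803.3 to 854.5 in cKO libraries, with overlap. Over all 42 genes the sums were 4522 to 5112 CPM in control and 5081 to 5292 CPM in cKO libraries, which overlapped, and 2700 to 3096 against 3251 to 3398 in TPM, which did not. In TPM the median of all tested genes was itself higher in cKO, so a sum apart in TPM cannot be read as particular to these genes.

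The active zone and priming proteins held no gene with an unadjusted p under 0.05. Ppfia2, liprin-alpha 2, a scaffold that helps assemble the active zone, had the highest TPM of the class, 73.6, 48.5 and 84.8 TPM in control and 87.2, 90.9 and 87.4 TPM in cKO libraries. In CPM it had 201, 151 and 223 in control and 222, 234 and 222 in cKO libraries, with control replicate 2 the lowest and control replicate 3 within the cKO range (log2 fold change 0.23, unadjusted p = 0.144, edgeR). It was 0.0896 without control replicate 2, and without control replicate 3 it was 0.357 (unadjusted p = 0.0338, edgeR). Bsn, bassoon, one of the giant scaffold proteins, had the largest fold change of the class, with 187.5, 111.5 and 168 CPM in control and 180, 214 and 192 CPM in cKO libraries. The groups overlapped, and the low value again came from control replicate 2 (log2 fold change 0.33, 95% interval -0.085 to 0.74, unadjusted p = 0.106, edgeR). Without that library it was 0.136. Rims3, a short RIM protein, had the lowest fold change, 53.3, 52.4 and 45.8 CPM in control and 45.4, 42.05 and 45.02 CPM in cKO libraries, lower in every cKO library (log2 fold change -0.19, unadjusted p = 0.107, edgeR).

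Pclo, piccolo, the other giant scaffold, had 158, 69.3 and 165 CPM in control and 139.6, 156 and 166 CPM in cKO libraries. Control replicate 2 had less than the other 5 libraries by a wide margin, and without it the log2 fold change of Pclo turned from 0.24 to -0.0684. The priming factors Unc13a and Unc13b had log2 fold changes of 0.14 and 0.0083, and that of Unc13b turned to -0.0676 after length and GC content had been corrected. Rims1 and Rims2, which tether calcium channels and vesicles at the active zone, had -0.04 and -0.009. Erc2 (CAST) had -0.079 and Ppfia3 (liprin-alpha 3) had -0.11. Of the 10 genes, 5 were above 0 and 5 below, with a median of -0.00034.

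In the Rab3 cycle, which carries vesicles to their docking sites, Rab3a and Rab3c lay on opposite sides. Rab3a, the main Rab3 GTPase of the brain, had the highest mean TPM of all 42 genes in control cortex, with 282.5, 329 and 251 TPM in control and 239.5, 287 and 262 TPM in cKO libraries. Vamp2, Syt4, Snap25 and Syp followed it in control cortex. Control values of Rab3a, Vamp2 and Syt4 overlapped, as did those of Snap25 and Syp, while the lowest control library of Syt4 (218 TPM) was just above the highest of Snap25 (215 TPM). In CPM it had 147, 198 and 126 in control and 115.5, 139.9 and 127.5 in cKO libraries, which overlapped, with control replicate 2 highest (log2 fold change -0.30, unadjusted p = 0.110, edgeR). Rab3c had 279, 171 and 296 CPM in control and 299, 335 and 337 CPM in cKO libraries, higher in every cKO library, with control replicate 2 far below the others (log2 fold change 0.38, unadjusted p = 0.0797, edgeR). Without control replicate 2 the log2 fold changes were -0.097 for Rab3a and 0.171 for Rab3c. Rph3a, rabphilin, which binds Rab3, had 0.09.

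Of the 4 endocytosis genes, none had an unadjusted p under 0.05 and no groups were apart in CPM. Sh3gl2, endophilin A1, which bends the membrane, had the highest TPM, 65.3, 49.7 and 72.5 TPM in control and 55.6, 66.2 and 77.04 TPM in cKO libraries, and in CPM 74.5, 64.4 and 79 in control and 58.9, 70.7 and 81.8 in cKO libraries. Its values overlapped from end to end (log2 fold change -0.044, 95% interval -0.37 to 0.28). Synj1, synaptojanin 1, the lipid phosphatase that helps shed the clathrin coat, had 156, 104 and 174 CPM in control and 169.6, 165 and 172 CPM in cKO libraries (log2 fold change 0.22, unadjusted p = 0.236, edgeR), with control replicates 1 and 2 below every cKO library and control replicate 3 above them. The log2 fold change of Synj1 was 0.0323 without control replicate 2. Amph, amphiphysin, had 85.02, 84.5 and 77.4 CPM in control and 75.2, 70.6 and 81.4 CPM in cKO libraries (log2 fold change -0.12). Dnm1, dynamin 1, which pinches the vesicle off, had 0.087.

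The presynaptic genes followed transcript length in the library that stood apart. Effective lengths, taken from the deposited counts and FPKM values, ran from 1044.4 bases for Sncb to 17492.8 bases for Pclo. Across the 42 genes, the deviation of control replicate 2 from the mean of the 6 libraries on the log2 scale had r = -0.745 with the log2 of length, and the other 5 libraries had r of 0.17 to 0.426. The 42 points of a library share that library's depth and composition, so these r are descriptions. In control replicate 2 the median deviation was 0.139 for the 14 shortest genes (up to 3149.5 bases) and -0.386 for the 14 longest (from 5711 bases). The fold changes between the groups had r = 0.384 with length over the 42 genes and 0.258 over 13135 genes. Their median was -0.042 for the 14 shortest, of which 5 were above 0, and 0.149 for the 14 longest, of which 10 were above 0. The median over the 42 genes was 0.0204 without control replicate 2. After length and GC content were corrected in each library, Syn2 (adjusted p = 0.00554) and Napb (adjusted p = 0.0329) were called, 2 of the 42, beside 1.76% of all tested genes (edgeR).

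**Figure D3:**
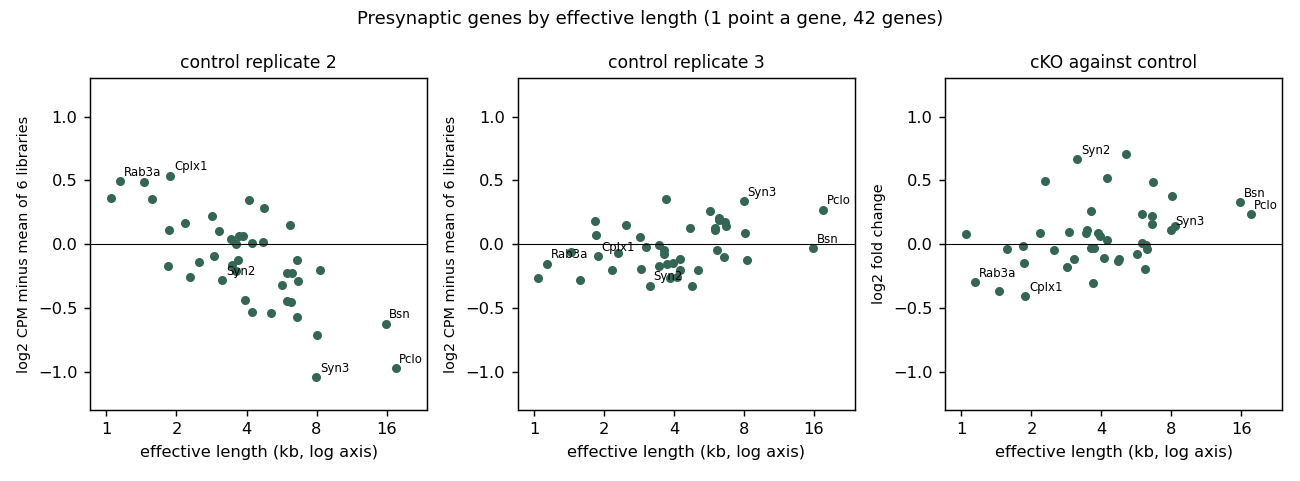
Effective length of the 42 presynaptic genes (kb, log axis) against the deviation of control replicate 2 (left) and control replicate 3 (middle) from the mean of the 6 libraries in log2 CPM, and against the log2 fold change of cKO over control (right); each point is a gene. The points fall with length in control replicate 2 (r = -0.745) and climb with it in control replicate 3 (r = 0.397) and in the fold change (r = 0.384).

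Ratios between related genes compare members within a library, where the scaling between libraries cancels. Of 14 ratios of TPM, 3 did not overlap between groups, all higher in cKO, and 11 overlapped. Their numerators, Syn2, Sv2b and Rab3c, are genes already described as higher in every cKO library, so the ratios are no separate result. The ratio of Syn2 to Syn1 was 0.232, 0.29 and 0.301 in control and 0.364, 0.389 and 0.429 in cKO libraries. That of Sv2b to Sv2a was 0.0712, 0.0633 and 0.0842 in control and 0.135, 0.0863 and 0.142 in cKO libraries, where cKO replicate 2 was only just above control replicate 3. That of Rab3c to Rab3a was 0.267, 0.125 and 0.333 in control and 0.368, 0.334 and 0.38 in cKO libraries, and control replicate 3 and cKO replicate 2 were nearly equal. Rab3c is about 8057 bases long and Rab3a about 1142, and control replicate 2, in which long genes were low, had the lowest ratio, and the part of length in it was not tested. Cplx1 to Cplx2 was 0.849, 1.16 and 0.694 in control and 0.816, 0.698 and 0.728 in cKO libraries and overlapped.

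**Figure D4:**
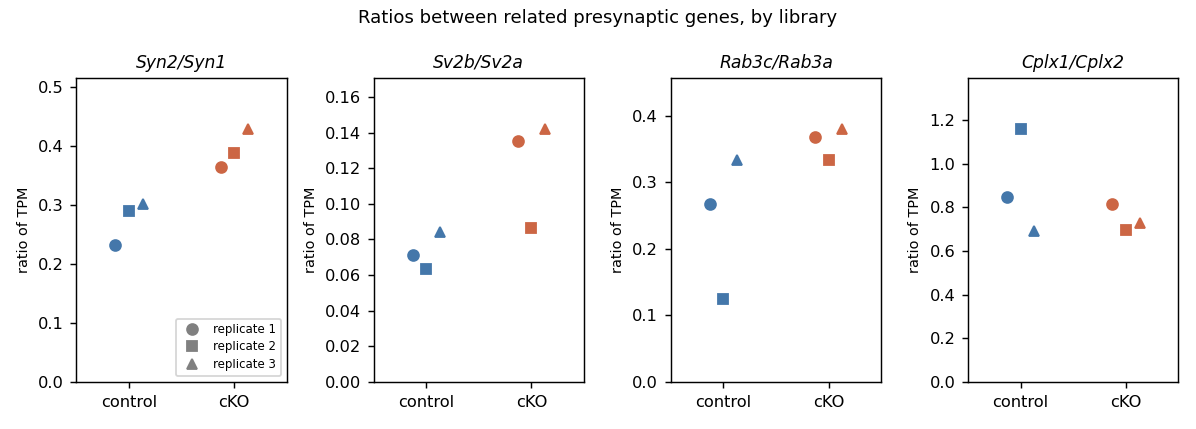
Ratio of TPM of 4 pairs of related presynaptic genes, with 1 point for each library (the marker shape gives the replicate number); each axis starts at 0. Syn2/Syn1, Sv2b/Sv2a and Rab3c/Rab3a are higher in every cKO library than in every control library, and Cplx1/Cplx2 overlaps.

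A further 70 genes of the presynaptic terminal that are not among the 42 were taken as a second list, with 67 of them tested. None had an adjusted p under 0.05. At an unadjusted p under 0.05 there were 7, or 10.4%, beside 6.62% of all tested genes, 5 higher and 2 lower in cKO, and the median log2 fold change was 0.0617. Higher were Cadps2 (0.61), a priming factor of dense core vesicles, the synaptotagmins Syt6 (0.34) and Syt10 (1.32), the widely expressed vesicle SNARE Vamp3 (0.25) and Eps15 (0.37), an adaptor of endocytosis, each with its log2 fold change. Lower were Syt9 (-0.53), a fast calcium sensor, and Sh3gl3 (-0.29), endophilin A3. Their adjusted p-values ran from 0.465 to 0.687 (edgeR). Syt10 was low, at 0.690, 0.878 and 1.096 CPM in control and 2.54, 1.196 and 2.94 CPM in cKO libraries.

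Other cell types were followed through 91 marker genes, of which 84 were tested. None had an adjusted p under 0.05 and 5, or 5.95%, had an unadjusted p under 0.05, beside 6.62% of all tested genes. On the higher side were Pax6 (0.31, log2) of radial glia, Aqp4 (0.74) of astrocytes, Cdh5 (0.41) of endothelium and Pdgfrb (0.27), listed with the meninges and also made by pericytes. The other markers of these lists did not all lie on that side, since 5 of the 8 radial glia markers (median -0.094) and 3 of the 4 tested astrocyte markers (median -0.18) were below 0, against 1 of the 5 endothelial markers (median 0.23) and 0 of the 3 tested meningeal markers (median 0.39). Of the 10 neuronal markers 3 were above 0 and 7 below, with a median log2 fold change of -0.166, and Nefl, a neurofilament subunit, was the one with an unadjusted p under 0.05 (log2 fold change -0.48, adjusted p = 0.465, edgeR). The 3 tested meningeal markers summed to 37.4 to 40.4 CPM in control and 43.4 to 49.2 CPM in cKO libraries, and the 5 endothelial markers to 212.8 to 231.1 and 229.9 to 303.8 CPM. Their part in the presynaptic values was not tested.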

How the data were processed

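mRNA of E18.5 cortex was sequenced on a DNBSEQ instrument as 3 control and 3 cKO libraries. A single table of 17348 genes was deposited, and 18 of its 27 columns were used, which hold estimated counts, TPM and FPKM of each library. The submitters' processing notes list HISAT2 2.2.1, Bowtie2 2.4.5 and RSEM 1.3.1 and the build GRCm38, without their roles. Strandedness is not given in the sources used here. The deposited estimated counts carry no scaling between libraries, and 89.4% were whole. The deposited TPM values served for levels and ratios, and the authors' FPKM values, with the counts, for effective length.

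Estimated counts were rounded, filtered with filterByExpr, scaled by TMM and compared with the quasi-likelihood test of edgeR 4.0.16 in R 4.3.3, with Benjamini-Hochberg adjustment over all genes tested and 95% intervals from the standard error. DESeq2 1.42.0, limma 3.58.1 on log2(TPM + 1), edgeR's exact test and the other alternatives named in the closing section were run on the same libraries. The correction for length and GC content removed a smooth trend (mgcv 1.9.3) from each library, with GC content from GENCODE M21 for 13274 genes (76.5%). The 42 genes and all lists were chosen with earlier results of these data known. Values in each library are given for the genes with an unadjusted p under 0.05 and, in each class, for those of highest TPM, largest and smallest fold change, and for others that change without a library. The methods were also run on simulated counts in which every gene had the same biological spread. Real genes may differ in spread, so those runs do not show how the methods perform here. Totals of 15091951 to 16885451 counts make 3 counts equal to 0.176 to 0.206 CPM, which covers counting error only. edgeR's common biological coefficient of variation came to 0.147. No 2 libraries of a group were duplicates, since their chi-square per degree of freedom was 3.52 to 65.4. Exact permutation tests were two-sided. Promoters came from RefSeq (GRCm38.p6), with an entry for 34 of the 42 genes, and gene coordinates from the same build. The other experiments of the study were not analysed here.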

Additional observations from a re-analysis of the deposited data

How the results depend on the processing

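Of 17 alternatives, 11 kept all 6 libraries and 6 left 1 out. Among the 42 genes, the number with an adjusted p under 0.05 was 0 in the edgeR quasi-likelihood test (0.0737% of all tested genes). It was 1 with DESeq2 (0.722%), 1 with the exact test (0.715%) and 1 at an adjusted p under 0.1 (0.133%). The length and GC correction gave 2 (1.76%), and the fits with 1 library left out gave 0 to 2 (0.0583% to 0.891%). The number at an unadjusted p under 0.05, 6, was 13 after the length and GC correction (14.3% of all tested genes), 10 with limma on log2(TPM + 1) (all higher, 10.3% of all genes), and 3 to 12 with 1 library left out. It was 10 without control replicate 2, 12 without control replicate 3 and 3 without cKO replicate 3, where 12.1%, 14% and 3.57% of all genes passed. The median log2 fold change was 0.207 in limma on log2(TPM + 1), where that of all genes was 0.141, and kept to 0.0204 to 0.063 in the others. Syn2, Sv2b and Syt1 had an unadjusted p under 0.05 in 17 of 17 alternatives, Syt5 and Cplx1 in 12 and Napb in 11.

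The replicate block gave 0 calls (0.0811% of all tested genes), 7 genes at an unadjusted p under 0.05 (7.62%) and a median of 0.0626. Same-numbered libraries deviated together with r of 0.0884, 0.0615 and 0.23, so the numbers were not taken as a pairing, although each library correlated best with its own number and the numbers may mark the 3 sequencing batches of the series' description. The block with the length and GC correction gave 3 calls (Syn2, Syt1 and Napb, beside 2.68% of all tested genes) and 13 genes at an unadjusted p under 0.05 (16.6%). Under it the log2 fold changes of Stx1a, Syt11 and Unc13b changed sign to 0.0759, -0.0039 and -0.068. That of Rims2 became 0.0193 with the block alone.

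Fold changes of 20 genes changed sign in at least 1 alternative and those of 22 in none. With the length and GC correction Stx1a became 0.0751, Syt11 -0.00947 and Unc13b -0.0676, and without a filter Unc13b became -0.00707. With limma on log2(TPM + 1), Amph became 0.0324, Cplx2 0.00318, Doc2b 0.04, Erc2 0.0708, Ppfia3 0.0138, Rims1 0.11, Rims2 0.151, Sh3gl2 0.0887, Snap25 0.141, Stx1a 0.236, Sv2a 0.114, Syngr1 0.118 and Vamp2 0.00213, and the cause was not tested. With 1 library left out, the ranges that crossed 0 were -0.229 to 0.315 for Syn3, -0.114 to 0.0341 for Syngr1, -0.098 to 0.0248 for Sv2a, -0.159 to 0.42 for Sv2c, -0.0279 to 0.334 for Sncb, -0.0121 to 0.0702 for Syt11, -0.284 to 0.00838 for Doc2b, -0.0974 to 0.0765 for Snap25, -0.173 to 0.153 for Stx1a, -0.0933 to 0.0775 for Unc13b, -0.153 to 0.0587 for Rims1, -0.201 to 0.11 for Rims2, -0.0684 to 0.44 for Pclo, -0.236 to 0.0397 for Erc2, -0.25 to 0.0534 for Ppfia3, -0.0103 to 0.143 for Rph3a and -0.166 to 0.0712 for Sh3gl2. With 3 libraries a group, small fold changes lie within the spread between libraries.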
